A study of Arabidopsis thaliana with 24 samples.

Results

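RNA levels of 10 Arabidopsis thaliana genes for transcription elongation factors were followed across seedlings kept at 21 °C or moved to 27 °C. The genes were taken by their locus identifiers and encode SPT factors, the FACT complex and the PAF1 complex. They are SPT4-1 (AT5G08565), SPT4-2 (AT5G63670), SPT5-2 (AT4G08350), SPT6L (AT1G65440), SPT16 (AT4G10710), SSRP1 (AT3G28730), VIP5 (AT1G61040), VIP4 (AT5G61150), ELF7 (AT1G79730) and ELF8 (AT2G06210). All 10 were among the 23390 genes measured at 1 h and the 23282 measured at 12 h, and all 10 passed the filter on low values at both times. Seedlings of wild type in the ecotype Col and of ino80-5, a mutant line of INO80 in the same ecotype, were raised under short days at 21 °C to an age of 7 days. Seedlings then stayed at 21 °C or went to 27 °C for 1 h or 12 h, which made 8 groups of 3 libraries of whole seedlings. INO80 encodes the motor subunit of a complex that moves and exchanges nucleosomes. The labels name 1 mutant line, say no more of its lesion, and do not say whether the libraries of a group came from separate cultures, so p-values measure only the spread between these libraries.

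RNA polymerase II leaves the promoter with a set of factors that keep it moving through nucleosomes. SPT4 and SPT5 form a clamp on the polymerase, SPT6 binds the elongating polymerase and handles histones, and SPT16 and SSRP1 together form FACT, a histone chaperone. The PAF1 complex travels with the polymerase and promotes histone modification over transcribed genes, and in Arabidopsis loss of its subunits lowers the flowering repressor FLC and causes early flowering, from which the names VIP (vernalization independence) and ELF (early flowering) come. VIP5 is the relative of yeast Rtf1, VIP4 of Leo1, ELF7 of Paf1 and ELF8 of Ctr9.

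The sequences before the genes are shown for 2 pairs whose members differed in their calls, the SPT4 genes and the FACT genes. The sequence before VIP5, the gene with the largest change, is shown too. Each is the 250 bases before the annotated gene start, 5′ to 3′ on the gene's strand, from the RefSeq assembly TAIR10.1, whose nuclear chromosomes are those of TAIR10, the build named in the labels. Capitals mark TGGGCC, 1 form of the site II element, and the box TATAAA that many core promoters carry, each on either strand. The form TGGGCT was not searched or marked, and its reverse complement AGCCCA stands unmarked in the SPT4-2 and SPT16 windows. SPT4-1 and SPT4-2 are the genes for the small SPT4 subunit, SPT16 and SSRP1 the genes for FACT.
SPT4-1, chr5:2775647-2775896, plus strand: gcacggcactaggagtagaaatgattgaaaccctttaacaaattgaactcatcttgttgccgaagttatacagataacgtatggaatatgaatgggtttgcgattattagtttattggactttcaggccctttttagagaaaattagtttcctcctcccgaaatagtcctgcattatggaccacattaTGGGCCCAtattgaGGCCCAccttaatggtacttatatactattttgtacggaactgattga
SPT4-2, chr5:25487677-25487926, plus strand: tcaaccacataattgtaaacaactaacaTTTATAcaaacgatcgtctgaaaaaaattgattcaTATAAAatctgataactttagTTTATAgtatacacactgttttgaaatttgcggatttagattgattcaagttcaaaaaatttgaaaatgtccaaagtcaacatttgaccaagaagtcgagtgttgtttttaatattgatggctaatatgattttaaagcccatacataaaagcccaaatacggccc
SPT16, chr4:6606358-6606607, minus strand: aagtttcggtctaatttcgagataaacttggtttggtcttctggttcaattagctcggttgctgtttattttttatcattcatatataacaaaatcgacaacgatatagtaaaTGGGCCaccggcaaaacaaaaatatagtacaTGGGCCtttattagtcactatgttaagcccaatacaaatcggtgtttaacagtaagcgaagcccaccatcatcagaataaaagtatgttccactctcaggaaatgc
SSRP1, chr3:10784638-10784887, plus strand: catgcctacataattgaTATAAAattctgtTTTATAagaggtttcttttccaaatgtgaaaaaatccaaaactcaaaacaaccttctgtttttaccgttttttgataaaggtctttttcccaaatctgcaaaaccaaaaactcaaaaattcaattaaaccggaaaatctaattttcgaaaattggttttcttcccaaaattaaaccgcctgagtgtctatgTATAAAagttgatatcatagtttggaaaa
VIP5, chr1:22482854-22483103, plus strand: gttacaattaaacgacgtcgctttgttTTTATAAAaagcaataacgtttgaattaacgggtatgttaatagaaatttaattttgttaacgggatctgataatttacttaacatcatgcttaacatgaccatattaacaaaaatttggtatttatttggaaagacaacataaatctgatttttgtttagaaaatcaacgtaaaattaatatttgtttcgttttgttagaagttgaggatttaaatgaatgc
TGGGCC was found before 4 of the 10 genes, SPT4-1, SPT16, ELF7 and VIP4, and before 13.65% of the 27443 nuclear protein-coding genes in windows of the same length. SPT4-1 had 3 matches, of which 2 overlap on opposite strands, and SPT16 had 2. TATAAA was found before 5 of the 10, SPT4-2, SPT5-2, SSRP1, SPT6L and VIP5, and before 47.35% of all promoters. In SSRP1 the nearest match began 29 bases before the start. No gene held both TGGGCC and TATAAA, and ELF8 held neither. The G-box CACGTG (6.49% of all promoters), the heat shock motif GAANNTTC (9.55%), CATGTG (11.09%) and the telo-box AAACCCTA (4.49%), searched on both strands, were in none of the 10 windows. These are matches of letters in a window, and the ELF7 window lies wholly within the neighbouring gene AT1G79740.

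The mutant libraries held less INO80 RNA in each genotype comparison. Mean INO80 at 21 °C and 1 h was 18.7 TPM in Col against 13.5 TPM in ino80-5, while at 27 °C and 12 h the means were 43.4 and 28.7 TPM. TPM is a share of all transcripts in which each gene's reads are divided by its length, so levels of different genes can be compared. The spacing of low TPM values put the libraries at an estimated 13.181 to 24.931 M fragments (M, mega) at 1 h and 13.622 to 15.567 M at 12 h. SPT4-1, a short gene with a low level, rested on an estimated 24 to 67 fragments at 1 h and 19 to 38 at 12 h, where counting alone gives a coefficient of variation of up to 20.5% and 23.1%. The other 9 genes had an estimated 155 fragments or more in each library. Of the loci like SPT5-2 in sequence, SPT5-1 stayed at or below 0.0826 TPM and AT4G08360, with 83.6% identity over 311 bases, reached 0.2396 TPM at 1 h and 2.83 TPM at 12 h. AT1G63210, the locus like SPT6L, stayed at or below 0.292 TPM. SPT16 has a near relative, AT4G10670, with 86.87% identity over 1645 bases, which was not among the genes measured at either time. Its level is therefore not known here, and whether SPT16 values hold reads from it was not tested. The 5 markers of green tissue and the 6 of roots were above 0 in each library of these whole seedlings. All changes below are log2 fold changes of TPM + 1 with their SE, from limma with n = 3 per group, two-sided, with p-values adjusted by Benjamini-Hochberg over all tested genes. A gene was called at an adjusted p under 0.05.

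**Figure D1:**
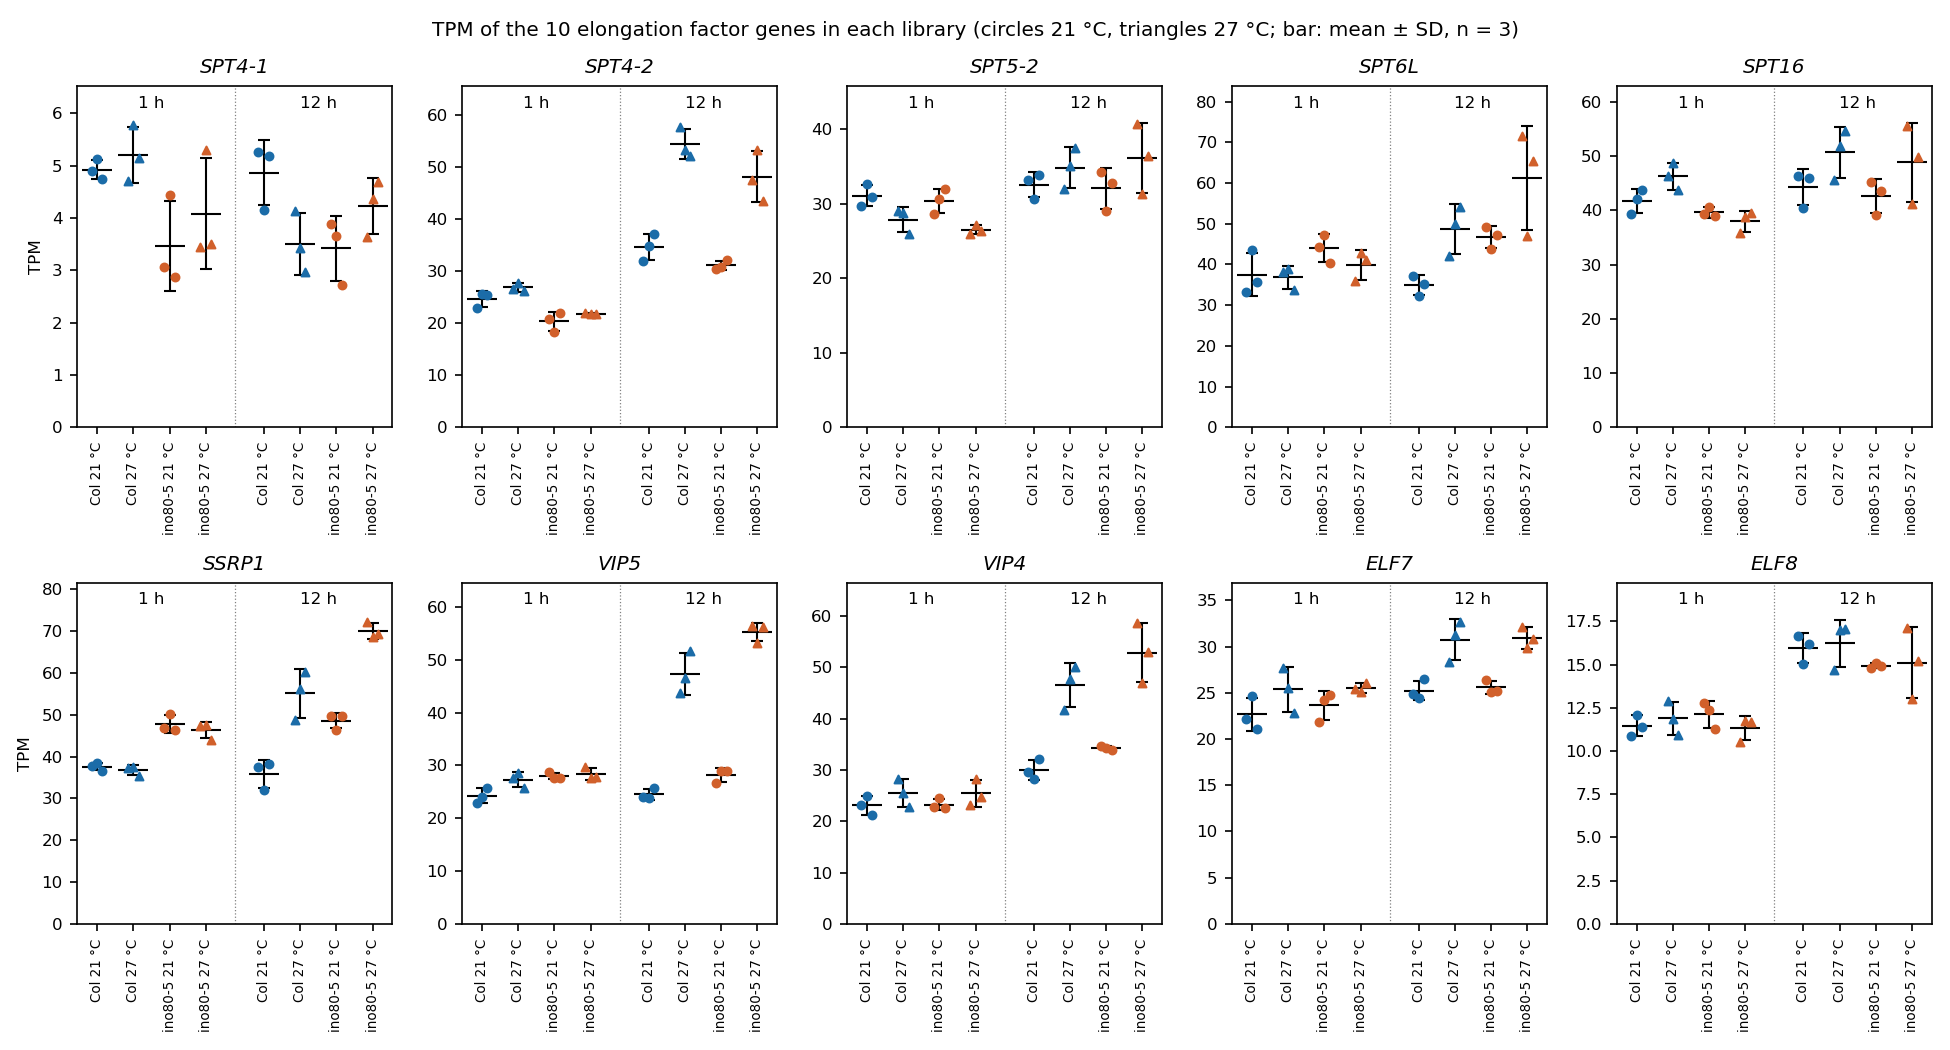
TPM of the 10 genes on the y axis in each library of the 8 groups on the x axis, with the mean ± SD (n = 3), Col in blue and ino80-5 in orange, 1 h left and 12 h right in each panel. SSRP1 libraries of ino80-5 lie above those of Col at the same temperature and time, and VIP5 at 12 h and 27 °C lies between 43.7 and 56.4 TPM against 23.8 to 29.0 TPM at 21 °C.

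The 10 genes covered a range from 2.72 to 72.2 TPM. In Col at 21 °C and 1 h the order of mean levels was SPT16 (41.7 TPM), SSRP1 (37.6), SPT6L (37.5), SPT5-2 (31.1), SPT4-2 (24.7), VIP5 (24.3), VIP4 (23.1), ELF7 (22.7), ELF8 (11.5) and SPT4-1 (4.93). SSRP1 and SPT6L overlapped in that group, and so did each neighbouring pair from SPT4-2 to ELF7. ELF8 and SPT4-1 were the lowest in all 8 groups and overlapped no other member there. SPT16 had the highest mean in Col at 21 °C at both times and in Col at 27 °C at 1 h, without overlap with the next gene. In Col at 21 °C and 1 h SPT6L reached 43.4 TPM and overlapped SPT16, whose lowest library was at 39.3 TPM. SSRP1 had the highest mean in all 4 groups of ino80-5 and in Col at 27 °C and 12 h. Its libraries overlapped those of the next gene there, SPT6L in ino80-5 and SPT4-2 in Col, except in ino80-5 at 27 °C and 1 h. Within the PAF1 complex, VIP4 (30.0 TPM), ELF7 (25.2) and VIP5 (24.5) stood close together in Col at 21 °C and 12 h, with ELF8 at 16.0. At 27 °C and 12 h in Col, VIP5 (47.3 TPM) and VIP4 (46.5) stood above ELF7 (30.8) and ELF8 (16.2) with no overlap between the upper and the lower pair.

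One hour at 27 °C left the set close to its level at 21 °C. None of the 10 genes was called in Col by limma, where 34.2% of the 19190 tested genes were (15.7% higher and 18.5% lower), and the fitted changes ran from -0.15 (SPT5-2) to 0.16 (VIP5). Their median was 0.09, against -0.0049 over all tested genes. In ino80-5 only SPT5-2, the large subunit of the clamp, was called, where the background was 32% (15.2% higher and 16.8% lower).

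SPT5-2 in ino80-5 measured 28.7, 30.6 and 31.9 TPM at 21 °C and 26.0, 27.2 and 26.4 TPM at 27 °C, so the groups did not overlap. The fall was -0.19 ± 0.06 (adjusted p = 0.031). SPT5-2 in Col measured 29.7, 32.6 and 31.0 TPM at 21 °C and 29.0, 28.7 and 25.9 TPM at 27 °C, also without overlap, with -0.15 ± 0.06 (adjusted p = 0.0749). The interaction of genotype and temperature for SPT5-2 was -0.04 ± 0.09 (adjusted p = 0.906), so no difference between these responses was detected. The call in ino80-5 was lost without any 1 of ino80-5 21 °C replicates 2 and 3 and 27 °C replicates 1 and 3, where adjusted p ran from 0.0696 to 0.119.

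In Col, 3 of the 10 genes had an unadjusted p under 0.05, namely SPT5-2, SPT16 (0.15 ± 0.06, adjusted p = 0.072) and VIP5 (0.16 ± 0.06, adjusted p = 0.0508). Of all tested genes 34.2% passed after adjustment, so at least that share had an unadjusted p under 0.05. VIP5 and SPT16 were called under median-of-ratios scaling and quantile normalization, and VIP5 alone when no filter was set or when replicate 3 of Col at 21 °C was left out. Leaving out replicate 2 of that group gave ELF7 alone (0.22, adjusted p = 0.05). Without Col 27 °C replicate 3, SPT16, VIP5 and ELF7 were called, with changes of 0.19, 0.20 and 0.23, where 29.2% of all tested genes were. In the other runs just named 27.4% (no filter) to 36.9% (quantile normalization) of all tested genes were called. The remaining genes, SPT4-1, SPT4-2, SSRP1, SPT6L, VIP4 and ELF8, had changes between -0.14 and 0.19 in either genotype.

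**Figure D2:**
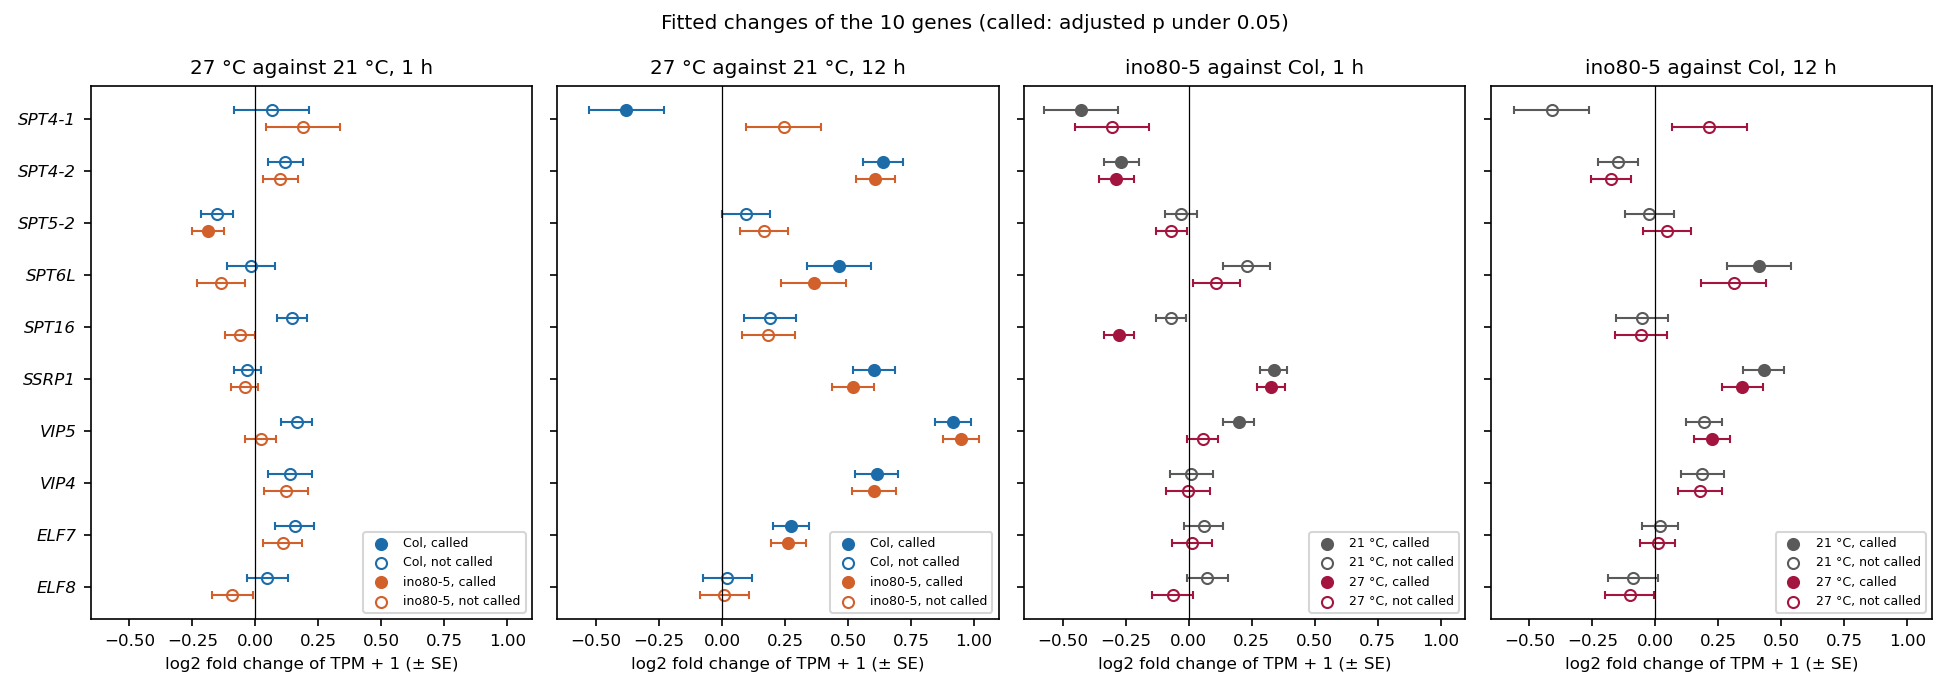
Log2 fold changes of TPM + 1 (x axis, ± SE) of the 10 genes (y axis) for warmth in each genotype and for genotype at each temperature, with filled points for genes called at an adjusted p under 0.05. After 12 h of warmth VIP5 stands farthest to the right at 0.92 in Col and 0.95 in ino80-5, and SSRP1 is filled in both genotype panels at both temperatures.

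After 12 h at 27 °C, 6 of the 10 genes had risen in both genotypes. They were VIP5, SPT4-2, VIP4, SSRP1, SPT6L and ELF7, with VIP5, the Rtf1 relative of the PAF1 complex, at 1.89-fold in Col and 1.93-fold in ino80-5. SPT4-1 fell in Col, while SPT5-2, SPT16 and ELF8 were called in neither genotype. With 7 genes called in Col and 6 in ino80-5, the set stood near a background of 58.6% and 57.4% of 19578 tested genes. In the upward direction 6 of 10 compares with 36.8% and 38.1%, and downward the shares were 21.8% and 19.3%. The median change of the 10 genes was 0.37 in Col and 0.31 in ino80-5, and that of all tested genes 0.13 and 0.15. Median-of-ratios scaling took the median of the 10 genes to 0.24 and 0.16 and that of all genes to 0.0134 and 0.0075. With it 5 of the 10 were higher and 1 lower in Col, and 4 higher and none lower in ino80-5, and the calls over all genes went from 7201 higher and 4274 lower to 5555 and 5598 in Col, and from 7458 and 3783 to 5217 and 5445 in ino80-5. The rises of VIP5, SPT4-2, VIP4 and SSRP1 in both genotypes and of SPT6L in Col held under each alternative run.

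VIP5 measured 24.1, 23.8 and 25.7 TPM in Col at 21 °C and 43.7, 46.6 and 51.6 TPM at 27 °C. In ino80-5 it measured 26.6, 29.0 and 28.9 TPM at 21 °C and 56.4, 53.2 and 56.2 TPM at 27 °C. All 6 warm libraries lay above all 6 libraries at 21 °C, and VIP5 rose by 0.92 ± 0.07 in the wild type (adjusted p = 6.1e-08) and by 0.95 ± 0.07 in the mutant (adjusted p = 5.11e-08). VIP4, the Leo1 relative, measured 29.6, 28.3 and 32.2 TPM in Col at 21 °C and 41.7, 47.8 and 50.1 TPM at 27 °C. In ino80-5 the VIP4 values were 34.7, 34.2 and 33.9 TPM at 21 °C and 58.6, 47.0 and 52.9 TPM at 27 °C. The groups did not overlap either, and VIP4 rose by 0.61 ± 0.09 in the wild type (adjusted p = 2.56e-05) and by 0.60 ± 0.09 in the mutant (adjusted p = 3.23e-05).

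The fitted changes of the 4 PAF1 complex genes in Col ran from 0.02 to 0.92. ELF7, the relative of Paf1 itself, measured 24.8, 24.4 and 26.5 TPM in Col at 21 °C and 28.3, 31.2 and 32.7 TPM at 27 °C, and 26.4, 25.1 and 25.2 TPM against 32.1, 29.8 and 30.8 TPM in ino80-5. Its rises were 0.27 ± 0.07 (adjusted p = 0.00379) and 0.26 ± 0.07 (adjusted p = 0.00503), without overlap in either genotype. These calls for ELF7 were lost under median-of-ratios scaling (Col 0.15 with adjusted p = 0.0549, ino80-5 0.11 with adjusted p = 0.157) and under quantile normalization (adjusted p = 0.106 and 0.173). ELF8, the relative of Ctr9 and the subunit with the lowest RNA level, measured 16.7, 15.03 and 16.2 TPM in Col at 21 °C and 14.7, 17.0 and 17.1 TPM at 27 °C, with 0.02 ± 0.10 and a 95% confidence interval from -0.19 to 0.23. In ino80-5 ELF8 was at 0.01 ± 0.10, with an interval from -0.20 to 0.22. The intervals of VIP5 (0.76 to 1.07 in Col and 0.795 to 1.0996 in ino80-5) lay above those of the other 3 in ino80-5, and in Col above those of ELF7 and ELF8 but not of VIP4, whose interval reached 0.7985 there. The differences between genes were not tested.

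In the clamp, the RNAs of the SPT4 genes went apart in Col. SPT4-2, the more abundant of them, measured 32.1, 34.8 and 37.2 TPM at 21 °C and 57.7, 53.4 and 52.2 TPM at 27 °C in Col, a rise of 0.64 ± 0.08 (adjusted p = 7.44e-06). In ino80-5 it measured 30.5, 30.9 and 32.1 TPM and then 47.6, 53.4 and 43.6 TPM, a rise of 0.61 ± 0.08 (adjusted p = 1.26e-05). SPT4-2 groups did not overlap in either genotype.

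SPT4-1 in Col measured 5.26, 4.15 and 5.18 TPM at 21 °C and 4.14, 3.42 and 2.97 TPM at 27 °C, where the groups touched without overlap. The fall was -0.38 ± 0.15 (adjusted p = 0.0393), and adjusted p ran from 0.0825 to 0.145 without any 1 of Col 21 °C replicates 1 and 3 and Col 27 °C replicates 2 and 3. With the replicate number as a block it was 0.0525. In ino80-5 SPT4-1 measured 3.89, 3.66 and 2.72 TPM at 21 °C and 3.63, 4.36 and 4.68 TPM at 27 °C, with overlap and 0.24 ± 0.15 (adjusted p = 0.175). The interaction for SPT4-1 was 0.63 ± 0.21, the largest of the 10 in size, with an unadjusted p of 0.00985 and an adjusted p of 0.225. The ratio of SPT4-1 to SPT4-2 was 0.164, 0.119 and 0.140 in Col at 21 °C and 0.0718, 0.0641 and 0.0569 at 27 °C, with no overlap. In ino80-5 it was 0.128, 0.119 and 0.0846 and then 0.0763, 0.0816 and 0.107, with overlap. At 1 h the mean ratio was between 0.173 and 0.1997 in the 4 groups. The exons of these genes share an identical run of at most 26 bases, so short reads can mostly be told apart. SPT5-2 was not called at 12 h, with 0.09 ± 0.10 for warmth in the wild type (adjusted p = 0.417) and 0.16 ± 0.10 in the mutant (adjusted p = 0.156).

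SPT6L measured 37.2, 32.2 and 35.3 TPM in Col at 21 °C and 42.1, 49.8 and 54.2 TPM at 27 °C, a rise of 0.46 ± 0.13 (adjusted p = 0.00616) without overlap. In ino80-5 it measured 49.2, 43.9 and 47.1 TPM and then 71.5, 46.9 and 65.5 TPM, a rise of 0.36 ± 0.13 (adjusted p = 0.025) with overlap. Replicate 2 of ino80-5 at 27 °C was the low library, and it was also the lowest of its group for SPT5-2, SPT16, SSRP1, VIP5, ELF7, VIP4 and ELF8. Without it, SPT5-2 (0.26, adjusted p = 0.0265) and SPT16 (0.30, adjusted p = 0.0149) were called too, 8 of 10 in all, where 55% of all tested genes were called. Without ino80-5 27 °C replicate 1 the same values were 0.08 for SPT5-2 (adjusted p = 0.523) and 0.09 for SPT16 (adjusted p = 0.5), and without ino80-5 21 °C replicate 2 the SPT5-2 value was 0.0975 (adjusted p = 0.452). The rise of SPT6L in ino80-5 was lost under median-of-ratios scaling (0.20, adjusted p = 0.168), under quantile normalization (0.23, adjusted p = 0.132), and without ino80-5 21 °C replicate 2 (adjusted p = 0.0829) or 27 °C replicate 1 (0.129) or 3 (0.0929).

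In FACT, SSRP1 rose and SPT16 was not called. SSRP1 measured 37.6, 31.98 and 38.1 TPM in Col at 21 °C and 48.8, 56.2 and 60.3 TPM at 27 °C, a rise of 0.60 ± 0.08 (adjusted p = 1.94e-05). In ino80-5 it measured 49.6, 46.5 and 49.7 TPM and then 72.2, 68.6 and 69.4 TPM, a rise of 0.52 ± 0.08 (adjusted p = 8.63e-05). SPT16 measured 46.4, 40.4 and 46.0 TPM in Col at 21 °C and 45.6, 51.9 and 54.7 TPM at 27 °C, with overlap and 0.19 ± 0.10 (adjusted p = 0.128). In ino80-5 it was 45.2, 39.2 and 43.6 TPM against 55.6, 41.1 and 49.9 TPM, with 0.18 ± 0.10 (adjusted p = 0.143).

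None of the 10 genes was called for the interaction of genotype and temperature by limma, at 1 h (background 1.88%, with 1.09% positive and 0.792% negative) or at 12 h (0.751%, with 0.327% and 0.424%). At each time 1 gene had an unadjusted p under 0.05, SPT16 at 1 h (-0.21 ± 0.08, adjusted p = 0.273) and SPT4-1 at 12 h. The share of all tested genes with such an unadjusted p was not counted. A p that misses the threshold does not show equal responses, and for VIP5 at 12 h the 95% confidence interval of the difference ran from -0.18 to 0.25.

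In ino80-5 against Col, SSRP1 was the only one of the 10 genes called in all 4 comparisons of the genotypes, by 1.25 to 1.35-fold. At 1 h 4 genes were called at 21 °C and 3 at 27 °C, where 35.9% (15.4% higher, 20.5% lower) and 37.4% (17.1% higher, 20.4% lower) of all tested genes were. SPT4-1 and SPT4-2 were lower and SSRP1 and VIP5 higher at 21 °C, and SPT4-2 and SPT16 lower and SSRP1 higher at 27 °C. At 12 h 2 genes were called at each temperature, with backgrounds of 28.8% (16.7% higher, 12.1% lower) and 30.2% (18.7% higher, 11.5% lower), SSRP1 and SPT6L at 21 °C and SSRP1 and VIP5 at 27 °C, all higher. The genotype comparisons of one table share no library, but each shares libraries with the warmth comparisons.

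SSRP1 at 1 h measured 37.8, 38.4 and 36.7 TPM in Col and 46.8, 50.3 and 46.4 TPM in ino80-5 at 21 °C, and 37.3, 37.6 and 35.4 TPM against 47.4, 47.6 and 44.1 TPM at 27 °C. All 6 mutant libraries lay above all 6 Col libraries. SSRP1 was thus higher in the mutant by 0.34 ± 0.05 at 21 °C (adjusted p = 0.000165), and by 0.33 ± 0.05 in the warm groups (adjusted p = 0.000207). For the 12 h values given above it was higher by 0.43 ± 0.08 at 21 °C (adjusted p = 0.00141) and by 0.35 ± 0.08 in the warm groups (adjusted p = 0.00555), again without overlap at either temperature. These 4 calls held under each alternative run.

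SPT16, the partner of SSRP1 in FACT, measured 39.3, 42.1 and 43.8 TPM in Col and 39.3, 40.7 and 38.9 TPM in ino80-5 at 21 °C and 1 h, with overlap and -0.07 ± 0.06 (adjusted p = 0.39). At 27 °C and 1 h it measured 46.4, 48.7 and 43.7 TPM in Col and 35.8, 38.8 and 39.5 TPM in ino80-5, without overlap and lower by -0.28 ± 0.06 (adjusted p = 0.00186). At 12 h no difference was called, at -0.05 ± 0.10 for 21 °C (adjusted p = 0.751) and -0.06 ± 0.10 for 27 °C (adjusted p = 0.715).

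The ratio of SPT16 to SSRP1 within a library separated the genotypes at each temperature and time. At 21 °C and 1 h it was 1.04, 1.096 and 1.19 in Col and 0.840, 0.810 and 0.839 in ino80-5. The warm libraries of that time had 1.24, 1.30 and 1.24 against 0.755, 0.814 and 0.895. At 12 h the means were 1.24 in Col and 0.877 in ino80-5 at 21 °C, and 0.921 and 0.696 at 27 °C. Within each genotype the ratio at 12 h was lower at 27 °C than at 21 °C in each library. A ratio within a library is free of the scaling between libraries. These ratios are given as values only, and whether the RNAs of SPT16 and SSRP1 differed in their change was not tested.

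**Figure D3:**
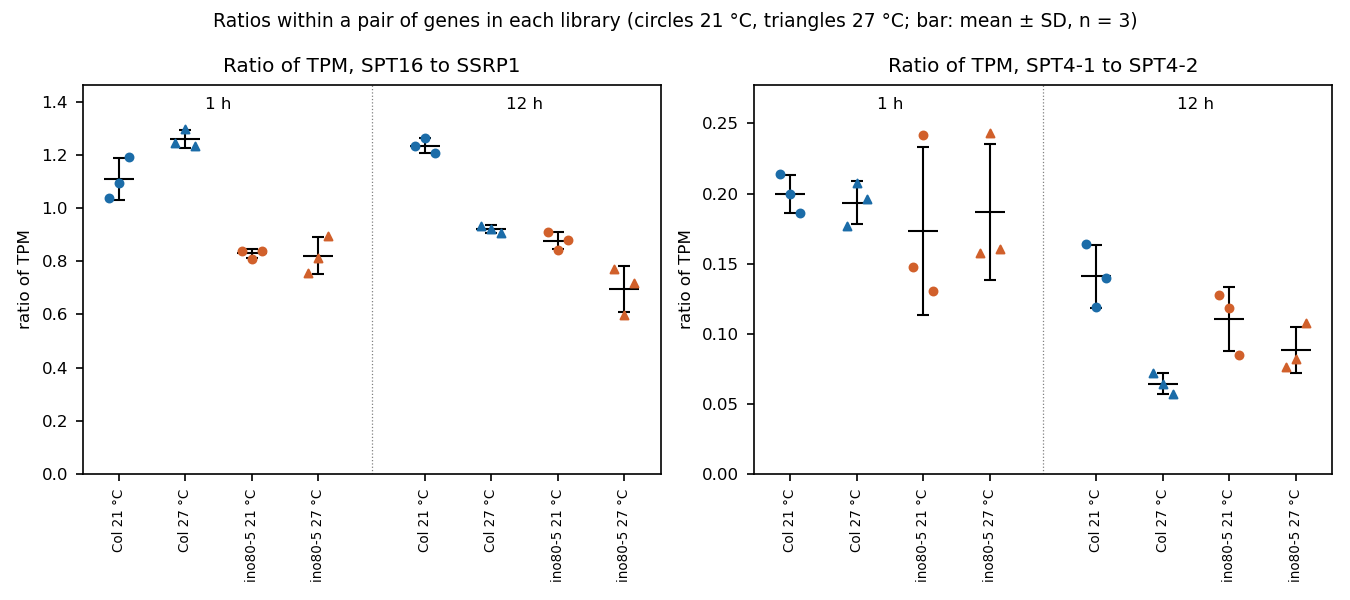
Ratio of TPM of SPT16 to SSRP1 (left) and of SPT4-1 to SPT4-2 (right) on the y axis in each library of the 8 groups, with the mean ± SD (n = 3). The SPT16 to SSRP1 ratio is 1.04 to 1.30 in Col at 1 h against 0.755 to 0.895 in ino80-5, and the SPT4-1 to SPT4-2 ratio in Col at 27 °C and 12 h is the lowest group at 0.0569 to 0.0718.

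SPT4-2 at 1 h measured 22.9, 25.7 and 25.5 TPM in Col and 20.8, 18.4 and 22.0 TPM in ino80-5 at 21 °C, and 26.6, 27.9 and 26.3 TPM against 21.9, 21.8 and 21.8 TPM at 27 °C. The groups did not overlap, and the mutant was lower by -0.27 ± 0.07 (adjusted p = 0.00681) and -0.29 ± 0.07 (adjusted p = 0.00409), which held under each alternative run. SPT4-1 at 1 h and 21 °C measured 4.90, 5.13 and 4.75 TPM in Col and 3.06, 4.44 and 2.87 TPM in ino80-5, without overlap. Its difference was -0.43 ± 0.15 (adjusted p = 0.0337), with an adjusted p of 0.0561 without the filter on low TPM. It was also lost without any 1 of Col replicates 1, 2 and 3 and ino80-5 replicates 1 and 3 at 21 °C, where adjusted p ran from 0.0608 to 0.131. At 27 °C and 1 h SPT4-1 measured 4.70, 5.77 and 5.15 TPM in Col and 3.45, 5.31 and 3.50 TPM in ino80-5, with overlap and -0.30 ± 0.15 (adjusted p = 0.119), and without ino80-5 27 °C replicate 2 it was -0.47 (adjusted p = 0.0197). Replicate 2 was the high library of SPT4-1 in ino80-5 at both temperatures.

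VIP5 at 1 h and 21 °C measured 23.0, 24.0 and 25.8 TPM in Col and 28.7, 27.6 and 27.6 TPM in ino80-5, without overlap and with 0.20 ± 0.06 (adjusted p = 0.0201). Without replicate 1 of Col at 21 °C its adjusted p was 0.0764, and without replicate 1 of ino80-5 it was 0.0732, and either way 2 of the 10 genes were called. At 27 °C and 1 h the VIP5 groups overlapped (0.06 ± 0.06, adjusted p = 0.518). At 12 h and 27 °C VIP5 was higher in ino80-5 by 0.22 ± 0.07 (adjusted p = 0.0277), and its adjusted p was 0.0939 under median-of-ratios scaling and 0.0712 to 0.112 without any 1 of Col 27 °C replicates 1 and 2 and ino80-5 27 °C replicates 1 and 3, each of which left 1 gene called. At 12 h and 21 °C it did not pass, at 0.19 ± 0.07 (adjusted p = 0.0553), and without ino80-5 21 °C replicate 1 it was called (0.23, adjusted p = 0.0458).

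SPT6L was higher in ino80-5 at 12 h and 21 °C by 0.41 ± 0.13 (adjusted p = 0.0261), without overlap in the values given above. Its adjusted p ran from 0.0596 to 0.0952 without any 1 of Col replicates 2 and 3 and ino80-5 replicates 1 and 3 at 21 °C, and without Col replicate 3 or ino80-5 replicate 3 only SSRP1 was called. At 27 °C and 12 h SPT6L was 0.31 ± 0.13 (adjusted p = 0.0816) with all libraries. Without ino80-5 27 °C replicate 2 it was 0.49 (adjusted p = 0.00261), and SPT4-2 (-0.25, adjusted p = 0.0303) and VIP4 (0.26, adjusted p = 0.0413) were called as well, 5 of 10 in all, where 25.8% of all tested genes were called. Other libraries moved these values the other way. SPT6L was 0.19 (adjusted p = 0.306) without ino80-5 27 °C replicate 1, and VIP4 was 0.10 (adjusted p = 0.437) without that library or without Col 27 °C replicate 1. SPT4-2 was -0.11 (adjusted p = 0.379) without ino80-5 27 °C replicate 3. At 1 h SPT6L measured 33.2, 43.4 and 35.8 TPM in Col and 44.2, 47.3 and 40.4 TPM in ino80-5 at 21 °C, with overlap and 0.23 ± 0.09 (adjusted p = 0.0712). It was called there under median-of-ratios scaling and quantile normalization, and without Col 21 °C replicate 2 (0.34, adjusted p = 0.00741) or ino80-5 21 °C replicate 3 (0.29, adjusted p = 0.0476). Without Col 21 °C replicate 1 it was 0.15 (adjusted p = 0.266).

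SPT4-1 at 12 h and 21 °C was -0.41 ± 0.15 in ino80-5 against Col (adjusted p = 0.0514), without overlap. It was called with a pseudocount of 5, under median-of-ratios scaling and quantile normalization, and without Col 21 °C replicate 2 (-0.50, adjusted p = 0.0417) or ino80-5 21 °C replicate 1 (-0.49, adjusted p = 0.046). SPT4-2 at 12 h and 27 °C was -0.18 ± 0.08 (adjusted p = 0.11), and was called under median-of-ratios scaling (-0.25, adjusted p = 0.0348) and quantile normalization (-0.23, adjusted p = 0.0475). SPT5-2, ELF7, VIP4 and ELF8 were called in none of the 4 genotype comparisons with all libraries, and ELF8 was called in none of the 8 comparisons between 2 groups.

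Across the 12 libraries of a table, members went together to different degrees, which is a description over libraries that share their groups. At 12 h VIP5 and VIP4 had r = 0.976, ELF7 and VIP4 0.959, and SPT5-2 and SPT16 0.946, while SPT4-1 was negative with each of the other 9. At 1 h SPT4-2 and SSRP1 had r = -0.896, SPT16 and SSRP1 -0.717, and ELF7 and VIP4 0.759. The non-members most like the mean of the 10 genes, by the lower of the r at 1 h and 12 h among 18827 genes, were AT1G80930, a MIF4G/MA3 domain protein (0.894 and 0.928), AT3G43220, a SAC3-like protein (0.915 and 0.876), AT3G03140, a Tudor/PWWP/MBT protein (0.875 and 0.933), SIZ1, a SUMO ligase (AT5G60410, 0.869 and 0.924), and AT5G17900 (0.867 and 0.924). Among the members themselves VIP4 came nearest to that mean at rank 38, and SPT4-1 stood at rank 10633. Each member is part of that mean, which raises its r, so members and non-members are not ranked on equal terms.

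The other genes of the elongation machinery, a list of 22 of which 20 were tested, also moved mostly upward after 12 h of warmth. In Col 11 were higher and 1 lower, with a median of 0.24, and in ino80-5 14 were higher and none lower, with a median of 0.34. Of all tested genes 36.8% and 38.1% were higher and 21.8% and 19.3% lower, with medians of 0.13 and 0.15. Under median-of-ratios scaling the counts of the list were 8 higher and 2 lower in Col and 8 higher and 3 lower in ino80-5. With that scaling its medians were 0.12 and 0.19, against 0.0134 and 0.0075 over all tested genes. The clearest were UBC2 (0.94 ± 0.06 in Col, adjusted p = 4.29e-09) and UBC1 (0.79 ± 0.05, adjusted p = 9.55e-09), the enzymes that place ubiquitin on H2B downstream of the PAF1 complex. CYCT1;4, a cyclin of the kinase P-TEFb, rose by 0.81 ± 0.095 (adjusted p = 4.2e-06) and the elongation factor TFIIS by 0.63 ± 0.08 (adjusted p = 5.5e-06).

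The PAF1 complex has further subunits, VIP3 and CDC73. VIP3 fell in Col at 12 h, from 31.2, 31.3 and 33.7 TPM to 26.9, 23.4 and 25.5 TPM (-0.33 ± 0.07, adjusted p = 0.00124). In ino80-5 VIP3 was not called, at 31.4, 30.4 and 32.4 TPM against 28.4, 31.4 and 27.5 TPM, with overlap (-0.11 ± 0.07, adjusted p = 0.219). CDC73 was called in warmth at 1 h in Col (0.48 ± 0.08, adjusted p = 0.000152), from 12.8, 12.95 and 13.1 TPM to 19.5, 18.04 and 17.8 TPM, the time at which none of the 10 genes was. In ino80-5 at 1 h CDC73 was higher in warmth too, at 16.1, 18.9 and 15.3 TPM against 20.6, 19.96 and 21.5 TPM, without overlap. The ino80-5 libraries of 1 h lay above those of Col at the same temperature. With 12 h of warmth CDC73 was called higher in ino80-5 (0.25 ± 0.08, adjusted p = 0.02), a call lost under median-of-ratios scaling (0.09, adjusted p = 0.332) and quantile normalization (0.07, adjusted p = 0.448), and it was not called in Col (0.08 ± 0.08, adjusted p = 0.431). At 12 h the mutant also had more CDC73 RNA, by 0.30 ± 0.08 at 21 °C (adjusted p = 0.0154) and by 0.47 ± 0.08 in the warm groups (adjusted p = 0.00076). In the other genotype comparisons CDKC;2, the kinase of P-TEFb, was higher in ino80-5 at 1 h by 0.35 ± 0.06 at 21 °C (adjusted p = 0.000202) and by 0.35 ± 0.06 in the warm groups (adjusted p = 0.000162).

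Subunits of RNA polymerase II itself showed no common direction. Of 13 tested, 4 were higher and 4 lower with 12 h of warmth in Col, and 5 and 3 in ino80-5, with medians of 0.12 and 0.14. Under median-of-ratios scaling 2 were higher and 4 lower in each genotype, and the medians were -0.0121 and -0.0175. NRPB2, the second-largest subunit, rose by 0.84 ± 0.09 in Col (adjusted p = 2.15e-06) and NRPB9B fell by 0.78 on the same scale (adjusted p = 2.33e-05). Of FLC and the 5 related MAF genes, known to need the PAF1 complex for expression, 4 were higher in ino80-5 at 21 °C and 5 at 27 °C at 1 h, and 2 and 5 at 12 h, with none lower. Of all tested genes 15.4% and 17.1% were higher at 1 h, and 16.7% and 18.7% at 12 h. Under median-of-ratios scaling the counts of FLC and MAF genes were 5 and 5 at 1 h, and 2 and 4 at 12 h. FLC measured 5.23, 5.74 and 5.64 TPM in Col and 12.7, 14.6 and 13.4 TPM in ino80-5 at 21 °C and 1 h (1.16 ± 0.08, adjusted p = 2.53e-08).

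**Figure D4:**
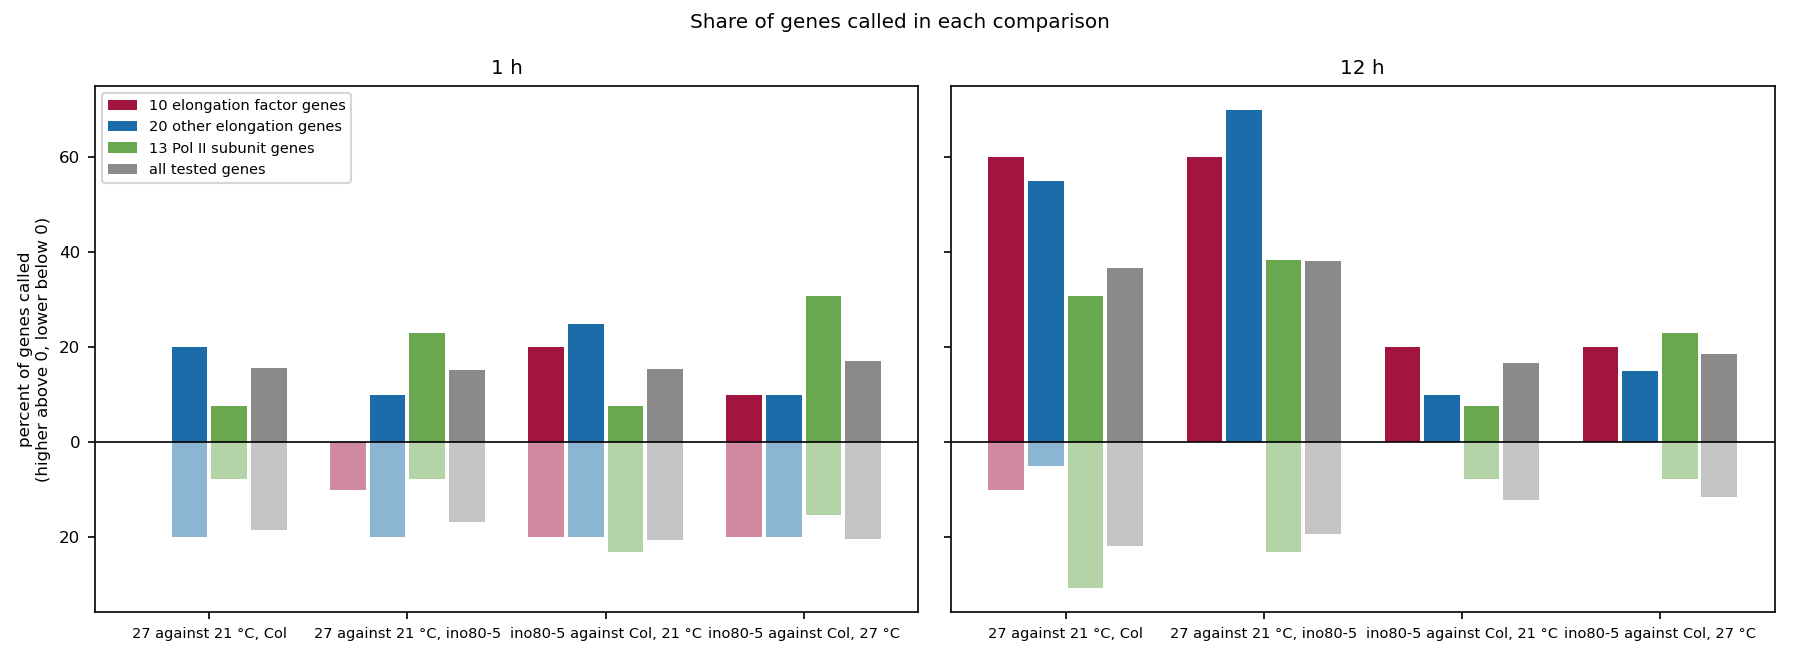
Percent of genes called higher (above 0) and lower (below 0, paler) on the y axis, for each of 4 comparisons on the x axis at 1 h (left) and 12 h (right), in the 10 elongation factor genes, 20 other elongation genes, 13 polymerase II subunit genes and all tested genes. With 12 h of warmth 6 of the 10 genes are higher in both genotypes, where 36.8% and 38.1% of all tested genes are.

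Marker genes of dividing cells also changed in several of these comparisons, not always in the direction of the 10 genes. The summed TPM of 9 such markers at 1 h was 161 to 194 in Col at 21 °C, 164 to 188 in Col at 27 °C, 118 to 126 in ino80-5 at 21 °C and 98.1 to 110 in ino80-5 at 27 °C. At 12 h it was 299 to 327 and 181 to 195 in Col, and 249 to 263 and 175 to 185 in ino80-5, at 21 °C and 27 °C. Of the 9, 8 were lower with warmth at 12 h in Col and 4 in ino80-5, where 21.8% and 19.3% of all tested genes were. In ino80-5 against Col at 1 h, 5 were lower at 21 °C and 7 at 27 °C (20.5% and 20.4% of all tested genes). At 12 h 3 and 1 of the 9 were lower (12.1% and 11.5% of all tested genes). The summed TPM of 5 green tissue markers at 12 h was 38770 to 42995 in Col at 21 °C, 23899 to 27199 at 27 °C, 36428 to 39856 in ino80-5 at 21 °C and 20621 to 23356 at 27 °C. Root markers summed to 1912 to 2151 in Col and 3503 to 3896 in ino80-5 at 21 °C and 12 h. Nearly all of that sum was 1 gene, PYK10, with means of 1927 and 3626 TPM, and of the 6 root markers 2 were higher, 1 lower and 3 not called, with a median of 0.07. Seed markers summed to 72.2 to 79.2 in Col and 118 to 134 in ino80-5 at 21 °C and 1 h. At 27 °C and 12 h the seed sums overlapped, at 89.9 to 125 in Col and 80.6 to 109 in ino80-5. Of the 4 seed markers, 3 were higher and none lower in ino80-5 at 21 °C and 1 h. At 27 °C and 12 h, 2 were higher and 1 lower. No marker was at 0 in any library. The part of these cell types in the values of the 10 genes was not tested, and in whole seedlings fewer cells of a type and less RNA per cell cannot be told apart. Of 7 common reference genes, 5 were higher and 1 lower with 12 h of warmth in Col, and 4 and 1 in ino80-5, and under median-of-ratios scaling 2 and 1 in Col and 1 and 2 in ino80-5.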

How the data were processed

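The authors deposited TPM values, 12 libraries to a table. Tools in the submitters' processing notes are DESeq2 1.26.0, HTSeq 0.11.2, HISAT2 2.1.10 and fastp 0.20.1, with TAIR10 as the build, and the gene lengths and strand setting are not given in the sources used here. Each table was fitted apart with limma 3.58.1 (R 4.3.3) on log2(TPM + 1), with 4 group means and a trended empirical Bayes prior. A gene entered the tests when 3 or more of the 12 libraries reached 1 TPM, which left 19190 genes at 1 h and 19578 at 12 h. Since the tables were scaled apart, 1 h and 12 h were never tested against each other. Loci, exons and promoters came from RefSeq TAIR10.1, and similar loci from BLAST 2.17.0. Fragments were estimated from the steps between low values of TPM times exon length. The fit was tested on simulated data. The members, lists and tests were chosen with earlier results of these data known. Named were all 10 members, INO80, and of each other list up to 4 called genes with the largest moderated statistic per comparison. VIP3 was named beyond that rule, as a subunit of the same complex, after its values were seen. The alternatives were a pseudocount of 5, no filter, median-of-ratios scaling, quantile normalization, a replicate block and leaving out each library.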

Additional observations from a re-analysis of the deposited data

How the results depend on the processing

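Of 1220 recomputed values of single genes, 1154 kept their side of the threshold, 35 lost it and 31 gained it, and no called value changed direction. The count of called genes for warmth in Col at 1 h was 0 and became 1 with all genes kept, 2 under quantile normalization and 2 with median-of-ratios scaling. No other count of called genes moved by over 1.5 times under the pseudocount, filter, scaling or block alternatives. Leaving out 1 library gave, at 1 h, 0 to 3 genes for warmth in Col, 0 to 1 in ino80-5, and for the genotype 2 to 4 at 21 °C and 3 to 4 at 27 °C. At 12 h it gave 6 to 7, 5 to 8, 1 to 3 and 1 to 5, and the interactions gave 0 to 0 at both times. The replicate number as a block added SPT6L (adjusted p = 0.0269, 21 °C) and SPT4-1 (0.0426, 27 °C) to the genotype calls at 1 h and VIP5 (0.0492, 21 °C) at 12 h, and took away SPT4-1 for warmth in Col at 12 h (0.0525). Libraries of the same number deviated together at r = -0.052 to 0.12 at 1 h and -0.289 to 0.203 at 12 h over 18 pairs each. Between libraries of different numbers r was -0.124 to 0.087 and -0.283 to 0.228, so no shared effect of the number was detected. Such values cannot show whether libraries of the same number were handled together. The causes of these shifts were not tested. Depth sets the widest counting error for SPT4-1, with at most an estimated 67 fragments in a library.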
